A study of Mus musculus with 20 samples.

Results

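The 30 genes described here form a list named for mature oligodendrocytes and the myelin they make. It also holds Enpp6 and Bcas1, markers of newly formed oligodendrocytes, and Sox10, a transcription factor of the lineage. Their symbols were found in the count table by Ensembl gene ID, 30 of 30 in a table of 54532 genes. Expression was measured by RNA sequencing of poly-A RNA from the hypothalamus of male C57BL/6J mice in 20 libraries. Gly-Low is a diet supplemented with compounds meant to lower glycation, the attachment of reactive sugar products to proteins. Mice of the acute arm were 4 months old and ate Gly-Low (4 libraries, called acute Gly-Low) or a control diet (5 libraries, acute control) for 1 week. Mice of the old groups were 25 months old and had eaten Gly-Low (3 libraries, old Gly-Low) or control diet (4 libraries, old control) for 5 months, and a young control group (4 libraries) was 3 months old with 1 week of control diet. No label states that the libraries of a group are from different animals, so p-values measure the spread between these samples, which may be technical.

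Oligodendrocytes wrap axons of the brain and spinal cord in myelin, a compacted stack of membrane rich in galactolipids, cholesterol and a few abundant proteins. Precursor cells divide, leave the cell cycle and pass through a short newly formed stage before SOX10 and MYRF, transcription factors of the lineage, drive the myelin genes. In the hypothalamus myelinated fibres run through and beside the nuclei that control feeding, and precursor cells there go on making new oligodendrocytes in adult life.

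Sequences around annotated start sites of these genes differ in composition, and 5 are printed so that this can be seen beside the direction of change with the acute diet. Promoter windows from RefSeq, 250 bases before to 50 bases after a start site on build GRCm38.p6, were found for 22 of the 30 genes. Aspa and Ermn had the largest positive log2 fold changes with the acute diet and Mobp the highest level per kilobase, while Mag and Gpr37 were the only lower genes with a window; the choice was made after their values were seen. For Mag, which has 3 entries, the window nearest the start of the gene was used. The windows of Aspa and Gpr37 lie inside the bounds of the annotated gene, downstream of its outermost start. Each is written 5′ to 3′ along its gene, with capitals for matches on either strand to ACAAAG or AACAAT (both bound by SOX proteins), CTGGNAC (bound by MYRF) or the E-box CAGCTG. No 2 matches overlapped. The windows lie at chr11:73324588-73324887, minus strand (Aspa), chr2:58052815-58053114, minus strand (Ermn), chr9:120149492-120149791, plus strand (Mobp), chr7:30914814-30915113, minus strand (Mag) and chr6:25689931-25690230, minus strand (Gpr37).
Aspa: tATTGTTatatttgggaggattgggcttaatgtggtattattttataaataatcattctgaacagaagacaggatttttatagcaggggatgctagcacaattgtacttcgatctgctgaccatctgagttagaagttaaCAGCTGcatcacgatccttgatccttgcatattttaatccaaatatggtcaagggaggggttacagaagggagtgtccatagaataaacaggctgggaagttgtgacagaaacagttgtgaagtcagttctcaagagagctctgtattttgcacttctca
Ermn: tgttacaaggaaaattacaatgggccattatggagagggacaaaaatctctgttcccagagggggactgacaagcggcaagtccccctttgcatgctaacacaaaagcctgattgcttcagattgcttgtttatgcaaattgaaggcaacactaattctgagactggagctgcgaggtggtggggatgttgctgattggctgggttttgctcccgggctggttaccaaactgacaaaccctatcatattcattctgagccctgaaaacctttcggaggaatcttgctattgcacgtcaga
Mobp: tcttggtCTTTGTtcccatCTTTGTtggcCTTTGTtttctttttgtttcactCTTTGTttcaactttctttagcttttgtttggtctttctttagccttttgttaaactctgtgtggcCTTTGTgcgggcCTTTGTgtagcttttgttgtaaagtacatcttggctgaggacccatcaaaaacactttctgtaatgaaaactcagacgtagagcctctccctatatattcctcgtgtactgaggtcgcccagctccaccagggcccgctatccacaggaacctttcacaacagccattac
Mag: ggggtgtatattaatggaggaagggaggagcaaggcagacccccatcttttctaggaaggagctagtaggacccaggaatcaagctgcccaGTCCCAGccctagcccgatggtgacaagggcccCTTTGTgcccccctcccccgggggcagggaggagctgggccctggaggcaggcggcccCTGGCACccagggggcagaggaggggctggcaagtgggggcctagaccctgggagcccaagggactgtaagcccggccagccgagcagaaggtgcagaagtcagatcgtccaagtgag
Gpr37: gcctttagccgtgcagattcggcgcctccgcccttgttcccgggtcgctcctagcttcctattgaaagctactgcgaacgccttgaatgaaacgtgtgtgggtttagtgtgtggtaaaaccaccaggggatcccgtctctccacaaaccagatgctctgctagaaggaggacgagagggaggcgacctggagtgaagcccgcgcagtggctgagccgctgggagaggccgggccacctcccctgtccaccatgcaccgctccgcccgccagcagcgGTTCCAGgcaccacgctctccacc
The Mobp window held 6 matches to ACAAAG, and the Ermn window held none of the 4 motifs. Among the 22 windows, 31.8% held ACAAAG against 18.7% of all 32851 windows in the RefSeq table, 27.3% held AACAAT against 10.7%, 40.9% held CTGGNAC against 19.3% and 22.7% held CAGCTG against 16.3%. A match is a description of these letters only. GC content was 39.0% in the Aspa window, 47.0% in Ermn and 43.3% in Mobp, against 65.0% in Mag and 62.7% in Gpr37. Over the 9 windows of genes higher in acute Gly-Low the median GC content was 48.3% with a range of 37.3% to 71.3%, so these values overlapped those of the 2 windows of lower genes.

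Levels are given as counts scaled to library size (CPM), and differences as log2 fold changes with their standard error (SE). Levels of different genes are compared only after division by transcript length in kilobases. On that scale Mobp, a small basic protein of compact myelin, was the highest of the 30 at 2520 CPM per kilobase averaged over the 5 groups, followed by Mbp, the basic protein that holds the cytoplasmic faces of myelin together, at 1586. Apod (a lipid-binding lipocalin) at 264.6, Mal (a proteolipid of myelin membrane) at 199.99 and Cnp (which keeps channels of cytoplasm open within myelin) at 193.6 came next. Sox10 at 2.6, Myrf at 2.0 and Nipal4, a putative magnesium transporter, at 1.1 were the lowest. The value for Mobp depends on its median annotated transcript length of only 498 bases. Counts of single genes were lowest for Sox10, with 15 counts in acute Gly-Low 4.

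Summed over the 30 genes, levels ran from 7232 to 10193 CPM in acute Gly-Low, against 4867 to 8439 CPM in acute control. They ran from 5591 to 7433 CPM in old Gly-Low, against 7315 to 9365 CPM in old control, and young control libraries held 5300 to 6467 CPM. The acute groups overlapped, the old groups overlapped by a narrow margin, and old control libraries all lay above the young controls. In bulk tissue, fewer oligodendrocytes and less RNA per oligodendrocyte cannot be told apart. Peripheral myelin is made by Schwann cells. Summed over 10 genes listed for them, levels ran from 66.0 to 77.0 CPM in acute Gly-Low, against 40.1 to 59.6 CPM in acute control, without overlap. They ran from 55.3 to 73.9 CPM in old Gly-Low, against 62.7 to 93.7 CPM in old control, and from 43.6 to 56.2 CPM in young control. Of the 5 tested with the acute diet 1 was called higher, the cadherin Cdh19 (1.40 ± 0.18, SE; adjusted p = 1.52e-05), where 27.8% of all genes were. Log2 fold changes of the 5 ran from -0.95 to 1.40 with a median of 0.05, and 3 were above 0. Sostdc1, 1 of the 10, is also listed as a gene of the choroid plexus. Prx, Pmp2, Dhh and Cldn19 were at most 0.591 CPM in any library, the level of Cldn19 in 1 young control. The part of Schwann cells in the values of the 30 genes was not tested.

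**Figure D1:**
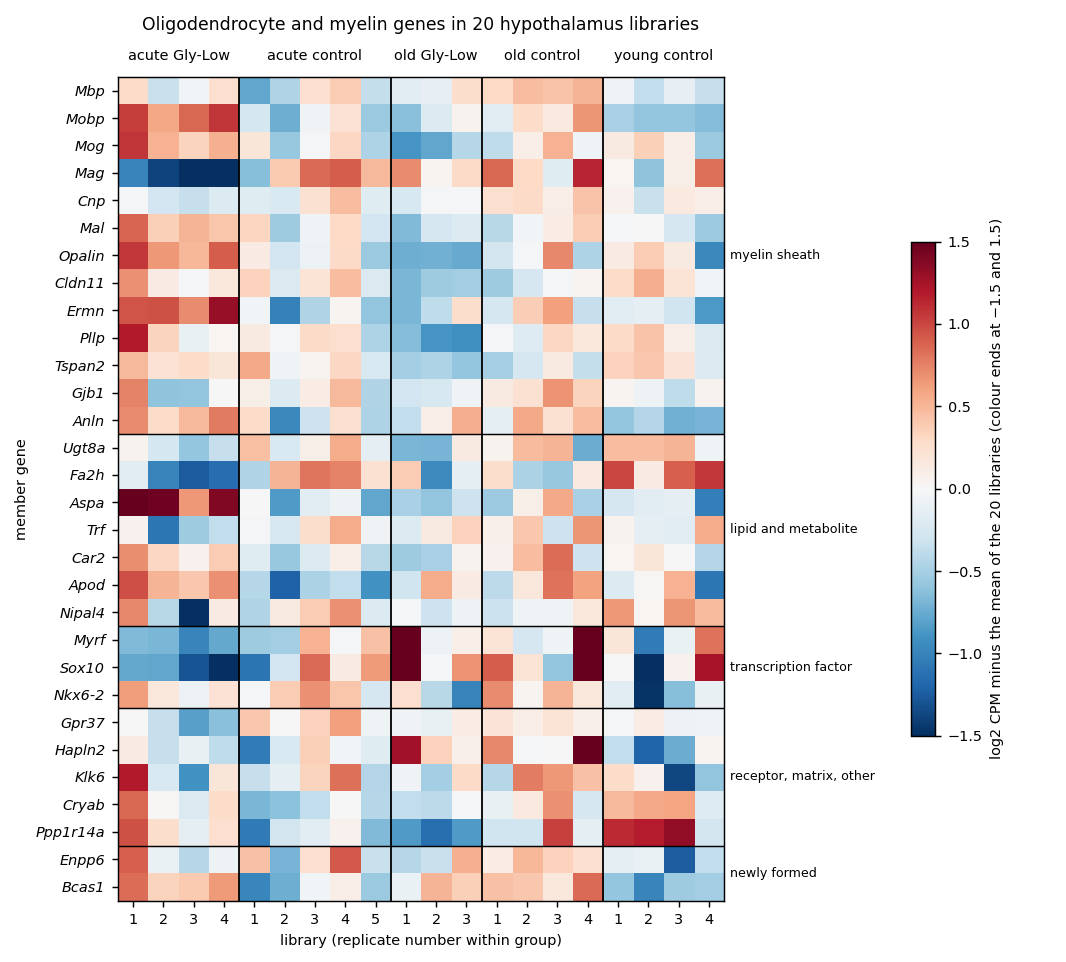
Each row is 1 of the 30 genes, ordered by role, and each column 1 of the 20 libraries; colour is log2 CPM minus the mean of that gene over the 20 libraries. Mag, Myrf and Sox10 are below their mean in all 4 acute Gly-Low libraries while Mobp, Ermn, Aspa and Bcas1 are above it, and Sox10 and Myrf are highest in old Gly-Low 1 and old control 4.

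Libraries differed in more than the diet. Mitochondrial transcripts took 20.9% ± 2.73 of counts in acute Gly-Low (SD, n = 4), against 6.98% ± 1.46 in acute control (SD, n = 5). The length slope of a library, the change of its log2 CPM per doubling of transcript length relative to all libraries, ran from -0.43 to -0.23 in acute Gly-Low and from 0.14 to 0.23 in acute control. The same slope per 10 points of transcript GC content ran from -0.33 to -0.21 in acute Gly-Low and from -0.35 to 0.31 in acute control. Pituitary genes summed to 56.0 to 244.2 CPM in acute Gly-Low and 21.5 to 61460 CPM in acute control, where controls 2, 3 and 5 were high. Summed levels of 15 marker genes of the hypothalamus ran from 1541 to 2634 CPM in acute Gly-Low and from 499.8 to 3965 CPM in acute control. The value of 499.8 CPM was the lowest of any library. Within the acute groups single libraries were high for many genes: acute Gly-Low 1 was the highest of its 4 libraries for 27 of the 30 genes, and acute control 4 the highest of its 5 for 20.

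One week of Gly-Low in young mice was compared with its own control on 9 libraries. The genes split: 12 of the 30 were higher in acute Gly-Low, 5 were lower and 13 did not pass. Over all 17161 genes tested, 58.3% were called, 27.8% higher and 30.5% lower, so a large share of all genes passed and the 30 stand against that background. The median log2 fold change of the 30 was 0.15, against -0.07 over all genes. It was 0.0029 without acute Gly-Low 1, 0.061 without acute control 5, 0.088 without acute control 2, 0.30 without acute control 4, 0.23 without acute Gly-Low 2 and 0.23 without acute Gly-Low 3. Without acute controls 2, 3 and 5 together it was 0.074, and without acute Gly-Low 1 and acute control 4 together 0.079. With length and GC content corrected it was 0.099, and it was -0.10 with an offset for transcript length and -0.28 with the length slope as a covariate, so its sign was not stable. Among the 13 proteins of the myelin sheath 6 were higher and 1 lower, among the 7 lipid and metabolite genes 3 were higher and 1 lower, and 2 of the 3 transcription factors were lower. Tests are edgeR's quasi-likelihood test with Benjamini-Hochberg adjustment over all genes tested and a threshold of 0.05.

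The gene with the smallest p among those that rose was Aspa, aspartoacylase, which frees acetate from N-acetylaspartate for myelin lipids. It had 107, 89.1, 51.1 and 84.8 CPM in acute Gly-Low, against 32.3, 17.9, 28.9, 30.8 and 18.8 CPM in acute control. All 4 Gly-Low libraries lay above all controls, with a log2 fold change of 1.71 ± 0.22 (SE) and adjusted p = 1.60e-05. Apod had 731, 529, 493.3 and 599 CPM in acute Gly-Low, against 276, 161, 268, 289 and 199 CPM in acute control, again without overlap (1.32 ± 0.19, SE; adjusted p = 3.31e-05). Ermn, which encodes the cytoskeletal protein ermin of the outer myelin tongue, had 240.3, 240.4, 203 and 309 CPM in acute Gly-Low, against 121, 61.6, 91.2, 128 and 82.8 CPM in acute control. Its groups did not overlap and the log2 fold change was 1.37 ± 0.20 (SE; adjusted p = 4.39e-05).

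Mobp had 2359.7, 1731, 2099 and 2421 CPM in acute Gly-Low, against 964, 695, 1110.3, 1337 and 782 CPM in acute control. Every Gly-Low library was above every control (1.15 ± 0.20, SE; adjusted p = 1.59e-04). With an offset for each library's trend over transcript length the sign turned (-0.28, adjusted p = 0.272), and Mobp has the shortest transcript of the 30. Opalin, a sialylated membrane protein of oligodendrocytes, had 75.3, 56.5, 50.9 and 67.8 CPM in acute Gly-Low, against 39.3, 29.6, 33.9, 44.2 and 24.6 CPM in acute control, with no overlap (0.88 ± 0.17, SE; adjusted p = 5.66e-04).

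Bcas1, a marker of newly formed myelinating oligodendrocytes, had 283, 199, 208 and 246 CPM in acute Gly-Low, against 80.7, 95.3, 154, 170.2 and 108 CPM in acute control. The groups did not overlap, with a log2 fold change of 0.96 ± 0.20 (SE; adjusted p = 9.27e-04). It was the only 1 of the 17 called genes to pass in the same direction under each of the 22 alternatives run for this comparison, with log2 fold changes from 0.85 to 1.44. Enpp6, a choline phosphodiesterase used as a marker of the same newly formed stage, had 18.4, 9.23, 7.32 and 9.38 CPM in acute Gly-Low, against 13.4, 6.10, 11.8, 18.6 and 7.80 CPM in acute control, and did not pass (-0.05 ± 0.33, SE; adjusted p = 0.913). Both genes overlap other annotated genes, for Bcas1 2 of them, Bcas1os1 and Bcas1os2. Because the libraries were non-directional, reads from opposite strands of such a stretch cannot be told apart.

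The other 6 genes that rose had smaller folds. They were Ppp1r14a, an inhibitor of myosin phosphatase (0.77), Anln, which encodes the septin-binding scaffold anillin (0.76), Mog, on the outermost face of the sheath (0.73), the small heat shock chaperone Cryab (0.71), the carbonic anhydrase Car2 (0.63) and Mal (0.58), all as log2 fold changes with adjusted p from 0.00409 (Car2) to 0.0158 (Mal). Mog had 189.9, 130.4, 114 and 131 CPM in acute Gly-Low, against 103, 61.1, 88.6, 113 and 65.5 CPM in acute control, and its groups did not overlap. Cryab had 171, 95.3, 81.1 and 114 CPM in acute Gly-Low, against 58.6, 61.5, 73.0, 94.7 and 70.3 CPM in acute control, and overlapped. With the length offset the signs of Mog (-0.042), Cryab (-0.36) and Ppp1r14a (-0.37) turned, and leaving out acute Gly-Low 1 ended the calls of Ppp1r14a (adjusted p = 0.0803) and Mal (adjusted p = 0.0628). Over the 30 genes, 8 lay above all controls without overlap in acute Gly-Low and 2 below, where 23% and 23.9% of all genes did so.

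Mag, the adhesion protein that faces the axon at the inner turn of myelin, fell. It had 43.1, 33.0, 28.4 and 30.2 CPM in acute Gly-Low, against 55.3, 113, 155, 162 and 121 CPM in acute control. All Gly-Low libraries were below all controls, with a log2 fold change of -1.83 ± 0.25 (SE) and adjusted p = 2.67e-05. The call was lost with the length slope as a covariate (-0.60, adjusted p = 0.337). Fa2h, the hydroxylase that modifies the fatty acids of myelin galactolipids, had 12.2, 6.88, 5.77 and 6.23 CPM in acute Gly-Low, against 10.03, 19.6, 23.9, 23.0 and 16.1 CPM in acute control. Gly-Low 1 lay above acute control 1, so the groups overlapped (-1.24 ± 0.27, SE; adjusted p = 0.00137). Gpr37, a receptor known in mice to hold back oligodendrocyte differentiation, had 87.7, 68.9, 49.6 and 56.7 CPM in acute Gly-Low, against 115, 87.9, 111, 133 and 83.2 CPM in acute control (-0.67 ± 0.18, SE; adjusted p = 0.00588), with some overlap. Its call was lost with the length offset (-0.16, adjusted p = 0.529) and with length and GC content corrected (-0.17, adjusted p = 0.477).

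The lineage factors Sox10 and Myrf also fell. Sox10 had 2.74, 2.73, 1.91 and 0.925 CPM in acute Gly-Low, against 2.19, 3.84, 8.43, 5.10 and 7.26 CPM in acute control (-1.35 ± 0.41, SE; adjusted p = 0.0105), and acute control 1 lay within the Gly-Low range. Myrf had 3.71, 3.66, 2.95 and 3.45 CPM in acute Gly-Low, against 4.09, 4.10, 8.47, 5.81 and 7.96 CPM in acute control, without overlap (-0.81 ± 0.27, SE; adjusted p = 0.0201). Sox10 kept its call under 16 of the 22 alternatives and Myrf under 11, and Myrf lost it without acute control 3 (adjusted p = 0.0575), acute control 5 (0.0552) or acute Gly-Low 3 (0.0541). The call of Myrf was lost with the transcript length offset and both calls were lost when GC content was corrected as well. Nkx6-2, the third factor, did not pass (-0.0023, adjusted p = 0.993).

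Mbp did not pass, with 3603, 2358, 2887 and 3535 CPM in acute Gly-Low, against 1723, 2169, 3518, 3849 and 2323 CPM in acute control (0.21 ± 0.23, SE; adjusted p = 0.465). The controls spanned the whole range of the Gly-Low libraries. Klk6, a protease of mature oligodendrocytes, had 15.5, 5.79, 3.64 and 7.71 CPM in acute Gly-Low, against 5.37, 6.14, 8.55, 12.05 and 5.02 CPM in acute control and did not pass (0.15 ± 0.37, SE; adjusted p = 0.747). Of the others that did not pass, Trf (transferrin, -0.54), Ugt8a (the galactosyltransferase that makes galactocerebroside, -0.43), Nipal4 (-0.26), Cnp (-0.24) and Gjb1 (a gap junction connexin, -0.03) had log2 fold changes below 0. Those of Pllp (plasmolipin, 0.41), Tspan2 (a tetraspanin, 0.15), Cldn11 (the claudin of myelin tight junctions, 0.14) and Hapln2 (a link protein of the matrix at nodes, 0.01) were above 0. Tspan2 overlaps Tshb, a pituitary hormone gene on the other strand, which had at most 2.5 CPM in acute Gly-Low and 69.3 CPM in acute control.

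**Figure D2:**
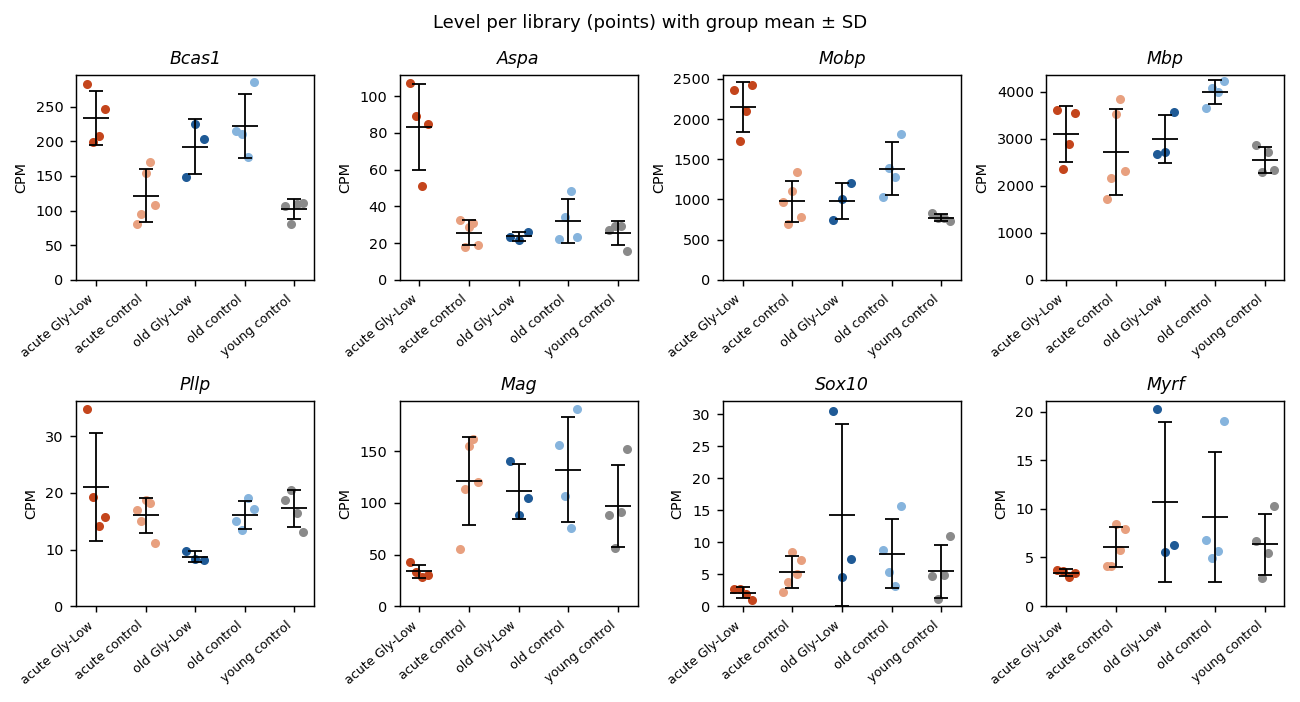
CPM of 8 genes in each library (points), with the group mean and SD as bars, for the 5 groups on linear axes that start at 0. Bcas1, Aspa and Mobp are higher in acute Gly-Low than in every acute control, Mag is lower, and Mbp overlaps.

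The called genes differed in transcript length and GC content. The 12 higher genes had a median transcript length of 1635 bases and a median GC content of 49.9%, against 1926 bases and 53.6% for the 13 that did not pass and 2746.5 bases and 57.8% for the 5 lower genes. Across the 30 genes, the log2 fold change had a Spearman's rho with length of -0.43 and with GC content of -0.42. Across all genes with a length the values were -0.56 and -0.24. The genes share their libraries and are not independent replicates. No gene of the 17 with transcripts under 2117 bases was called lower, and among all genes in the shortest of 5 bins of length 61.6% were called higher and 4.17% lower.

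After the length offset 7 of the 12 higher genes passed, and the same 7 passed after the offset for length and GC content: Aspa, Apod, Ermn, Opalin, Anln, Car2 and Bcas1. Mag and Fa2h were the lower genes that passed with both, at -1.34 (Mag) and -0.79 (Fa2h) with length and GC content corrected, where Tspan2 (-0.96) and Ugt8a (-0.81) were called lower as well. With the length offset alone, Sox10, Tspan2 (-0.80) and Nkx6-2 (-0.62) were also called lower. Without acute controls 2, 3 and 5, 6 genes were called higher (Mobp, Opalin, Ermn, Aspa, Apod and Bcas1). With the length slope as a covariate on all 5 groups, only Mobp and Bcas1 were called higher and only Ugt8a and Gpr37 lower, and the signs of Opalin, Car2, Mog, Cryab, Ppp1r14a, Sox10 and Myrf turned. Over all genes 4099 were called higher with the length offset, 3926 with length and GC content and 2137 with this covariate, against 4774. The counts of all genes called lower were 4086, 3907 and 1670, against 5231. Without acute Gly-Low 1 and acute control 4 together the same 12 were called higher, and 5 were lower, of which 4 were among the main 5; Myrf lost its call and Trf gained one. This alternative and the offset for length and GC content were chosen after seeing the data.

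**Figure D3:**
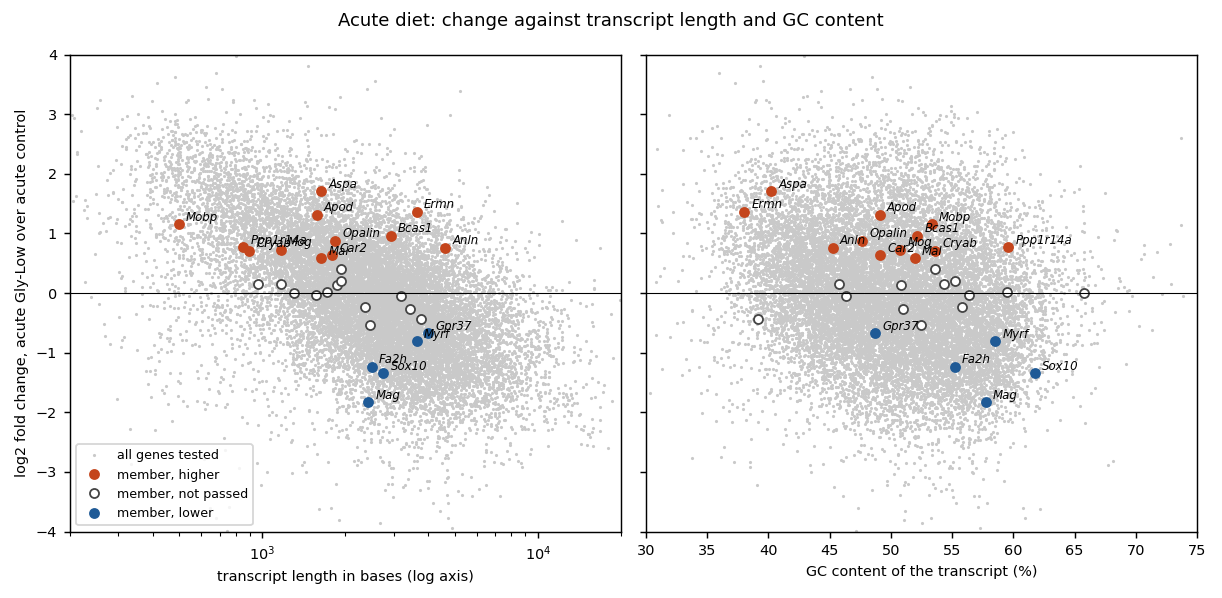
Log2 fold change of acute Gly-Low over acute control against transcript length (left, log axis) and transcript GC content (right) for all genes tested (grey) and the 30 genes by call; the vertical axis is limited to -4 to 4. The 5 lower genes have transcripts of 2419 bases or longer, while Ermn and Anln are long and higher.

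Genes of neighbouring stages were read from lists chosen with earlier results known. With the acute diet 27.8% of all genes were called higher and 30.5% lower. Of 15 genes of oligodendrocyte precursor cells 0 were called higher and 11 lower in acute Gly-Low, with a median log2 fold change of -1.33. They included Tnr (tenascin-R, -2.70 ± 0.20, SE), Gpr17 (a receptor of committed precursors, -2.52 ± 0.34, SE) and Vcan (the proteoglycan versican, -1.35 ± 0.18, SE), with adjusted p from 2.48e-07 (Tnr) to 1.84e-05 (Gpr17). Their summed level was 258.1 to 347.9 CPM in acute Gly-Low, against 605.7 to 711.1 CPM in acute control, without overlap. With the length offset 8 of the 15 were called lower, and with length and GC content 9 were lower and 1 higher. With the length slope as a covariate 3 were lower and 1 higher and the median was 0.27, where the median of all genes was 0.17.

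Of 29 further oligodendrocyte and myelin genes, 9 were higher and 9 lower in acute Gly-Low, where 27.8% and 30.5% of all genes were. Their median was 0.03. The gene with the smallest p in each direction was Evi2a (1.46 ± 0.17, SE; adjusted p = 6.18e-06) and Efnb3, an ephrin (-1.21 ± 0.15, SE; adjusted p = 1.06e-05). Of 15 genes of myelin lipid synthesis, 0 were higher and 8 lower, among them the desaturase Scd2 (-1.04 ± 0.15, SE; adjusted p = 3.49e-05), and after the length offset 2 were higher and 1 lower. Of 19 genes of cholesterol synthesis 3 were higher and 7 lower. Of 14 regulators of the lineage 3 were higher and 6 lower, with Olig2 among the lower (-1.38 ± 0.26, SE; adjusted p = 3.54e-04). Their summed level was 675.5 to 720.8 CPM in acute Gly-Low, against 516.7 to 623.4 CPM in acute control, without overlap. Olig1 and Olig2 are also among the 15 precursor genes above, so the 2 lists are not separate.

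Markers of other cells were also called in the same comparison, where 27.8% of all genes were called higher and 30.5% lower. Of 14 neuronal genes 0 were higher and 8 lower, with a summed level of 3802 to 4361 CPM in acute Gly-Low and 5350 to 6850.5 CPM in acute control. Of 12 microglial genes 6 were higher and 3 lower, and of 12 astrocyte genes 2 were higher and 6 lower. Of 10 meningeal genes 6 were higher and 0 lower, and of 10 endothelial genes 2 were higher and 6 lower. Of 15 hypothalamus genes 8 were higher and 3 lower. The length offset left 4099 genes in all called higher and 4086 lower. With it the counts were 0 and 5 (neuronal), 2 and 2 (microglial) and 1 and 5 (astrocyte). They were 9 and 0 (meningeal), 2 and 4 (endothelial) and 1 and 4 (hypothalamus). The slope covariate left 2137 genes in all called higher and 1670 lower. With it the counts were 3 and 6 (neuronal), 1 and 2 (microglial) and 4 and 3 (astrocyte). The rest were 2 and 0 (meningeal), 0 and 2 (endothelial) and 1 and 2 (hypothalamus). The part of these markers in the values of the 30 genes was not tested.

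Long-term Gly-Low in old mice was compared with old controls, in a fit of the 11 libraries of the ageing groups. No gene of the 30 passed edgeR's test, and 0% of all 18281 genes did so in either direction. The values of the 30 nevertheless lay mostly on the lower side: 28 of 30 log2 fold changes were below 0, where 46.7% of all genes were, and the median was -0.36 against 0.03. At an unadjusted p under 0.05 there were 8 lower and 0 higher, where 1.08% and 1.29% of all genes were. In 7 genes (Mbp, Mog, Cnp, Opalin, Pllp, Gjb1 and Ppp1r14a) all old Gly-Low libraries lay below all old controls, where 3.5% of all genes did so, and in 0 genes they lay above, where 3.03% did. DESeq2 and limma-voom also called 0 of the 30. Of the 29 further oligodendrocyte and myelin genes, 9 were above 0, with a median of -0.17 and 0 called. Genes of a list share their libraries and are not independent replicates.

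The smallest p belonged to Pllp, a proteolipid thought to organise myelin membrane domains. It had 9.80, 8.31 and 8.08 CPM in old Gly-Low, against 15.0, 13.4, 19.1 and 17.1 CPM in old control. The groups were apart, with a log2 fold change of -0.87 ± 0.22 (SE) and adjusted p = 0.953 by edgeR. Under the 20 alternatives its value ran from -0.97 to -0.67. Mog had 49.1, 52.8 and 67.1 CPM in old Gly-Low, against 69.3, 97.0, 130.4 and 86.9 CPM in old control, also apart (-0.75 ± 0.27, SE; adjusted p = 0.953 by edgeR). Gjb1 had 11.5, 11.9 and 13.5 CPM in old Gly-Low, against 15.4, 16.5, 22.3 and 17.7 CPM in old control, and its groups did not overlap (-0.53 ± 0.20, SE; adjusted p = 0.953 by edgeR).

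Mbp had 2667, 2722 and 3575 CPM in old Gly-Low, against 3648, 4083, 3986 and 4235 CPM in old control (-0.39 ± 0.17, SE; adjusted p = 0.953 by edgeR). The highest Gly-Low library was just under the lowest control. Opalin had 21.7, 21.9 and 21.4 CPM in old Gly-Low, against 29.7, 35.3, 59.5 and 26.1 CPM in old control (-0.78), and old control 3 was the highest of these. Ppp1r14a had 8.25, 6.84 and 8.26 CPM in old Gly-Low, against 12.1, 12.1, 30.3 and 13.5 CPM in old control (-1.11), where old control 3 was again high.

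Sox10 and Myrf were the 2 genes with values above 0, and both were uneven. Sox10 had 30.6, 4.597 and 7.45 CPM in old Gly-Low, against 8.77, 5.397, 3.10 and 15.6 CPM in old control (0.82 ± 0.77, SE; adjusted p = 0.953 by edgeR). Myrf had 20.2, 5.56 and 6.30 CPM in old Gly-Low, against 6.80, 4.96, 5.65 and 19.1 CPM in old control (0.26 ± 0.59, SE; adjusted p = 0.957 by edgeR). In each gene 1 library of either group, old Gly-Low 1 and old control 4, held the high value. These 2 libraries also had the highest slopes on GC content of all 20, at 0.60 and 0.54, and Sox10 and Myrf transcripts are 61.8% and 58.5% GC. The part of this in their values was not tested.

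The remaining old diet values were -0.18 for Bcas1, -0.29 for Enpp6, -0.46 for Klk6, -0.17 for Apod and -0.40 for Cryab, none of which passed. Precursor genes were near even, with a median of 0.06 and 8 of 15 above 0. Meningeal genes had a median of 1.21 with 10 of 10 above 0 and 0 called, at 99.9 to 134.4 CPM in old Gly-Low against 65.0 to 77.4 CPM in old control, and microglial genes had 10 of 12 below 0. The length slope ran from 0.08 to 0.29 in old Gly-Low and from -0.20 to 0.16 in old control, and across the 30 genes the log2 fold change had a Spearman's rho with transcript length of 0.57, against 0.46 across all genes. With the length offset 28 of the 30 genes were below 0 with a median of -0.29. With the replicate number of the titles as a block 23 were below 0 with a median of -0.32, and with the block and the length offset 22 with a median of -0.24. With limma-voom 24 were below 0 with a median of -0.12, and leaving out single libraries gave 24 to 28.

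**Figure D4:**
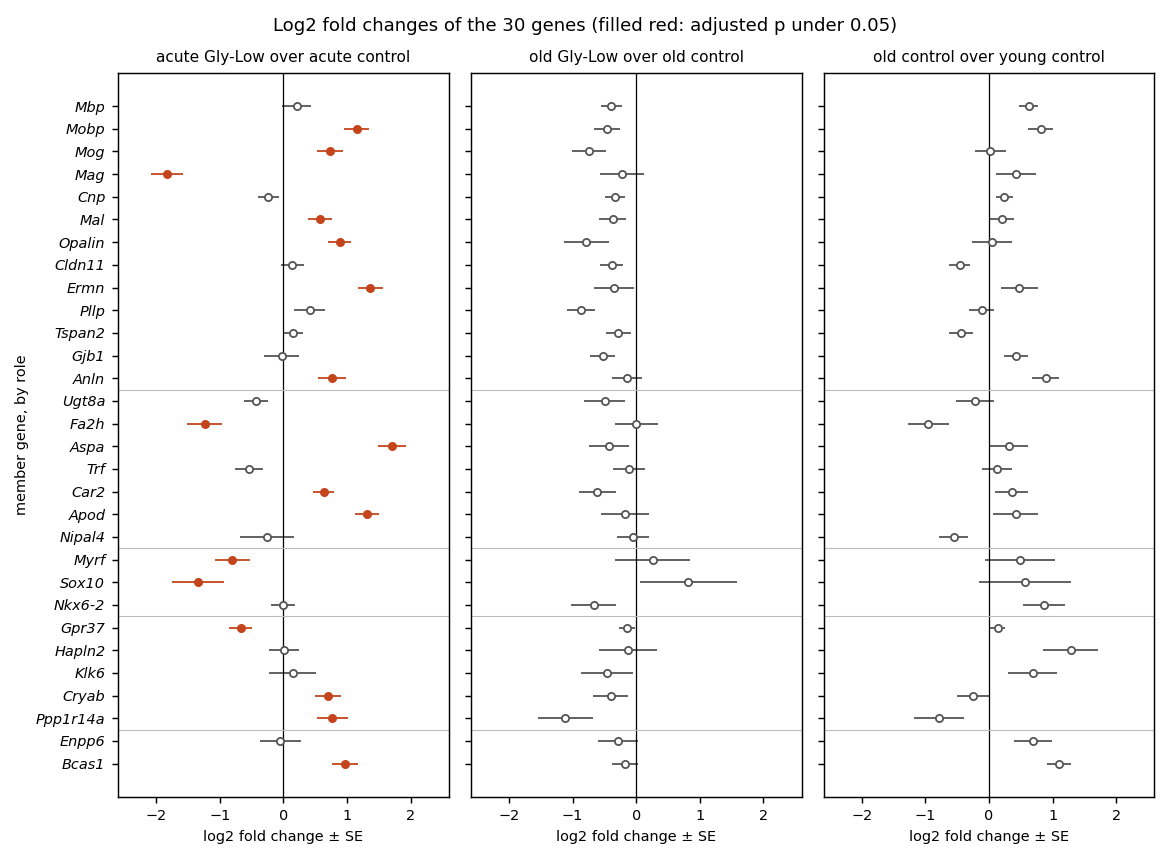
Log2 fold changes with SE for the 30 genes, ordered by role, in acute Gly-Low over acute control (left), old Gly-Low over old control (middle) and old control over young control (right); filled red points passed the adjusted threshold. Red points stand on both sides of 0 on the left, and no gene passed in the middle or on the right.

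Old and young mice on control diet were compared in the same fit, and this comparison shares its old control libraries with the old diet comparison, so the values of both are not independent. No gene of the 30 passed edgeR's test, where 0.0328% of all genes were called. There were 22 of 30 values above 0, where 51.9% of all genes were, with a median of 0.34 against 0.02. With limma-voom 17 were above 0 with a median of 0.062, with length and GC content corrected the median was 0.22, and it was 0.20 without old control 4. At an unadjusted p under 0.05, 8 of the 30 were higher and 4 lower in old mice, where 3.79% and 5.31% of all genes were. In 7 genes (Mbp, Mobp, Gjb1, Anln, Nkx6-2, Enpp6 and Bcas1) all old controls lay above all young controls, where 2.77% of all genes did so, and in 0 genes below, where 2.96% did. Of the 29 further oligodendrocyte and myelin genes, 24 were above 0, with a median of 0.29 and 0 called. Here too the genes share their libraries and are not independent replicates.

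Bcas1 was nearest to the threshold, with 214, 211, 177 and 286 CPM in old control, against 106, 80.1, 109.7 and 112 CPM in young control. The groups were well apart, with a log2 fold change of 1.10 ± 0.19 (SE) and adjusted p = 0.0950 by edgeR. Mobp had 1035, 1395, 1283 and 1821 CPM in old control, against 827, 766, 774 and 733 CPM in young control (0.81 ± 0.19, SE; adjusted p = 0.171 by edgeR). Anln had 50.9, 83.2, 65.4 and 77.0 CPM in old control, against 37.5, 41.4, 34.0 and 34.5 CPM in young control (0.89 ± 0.22, SE; adjusted p = 0.185 by edgeR). In both genes the young controls were tight and all below the old.

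Mbp had 3648, 4083, 3986 and 4235 CPM in old control, against 2862, 2302, 2714 and 2333 CPM in young control, without overlap (0.62 ± 0.15, SE; adjusted p = 0.191 by edgeR). Enpp6 had 10.7, 13.9, 12.5 and 11.6 CPM in old control, against 8.97, 9.22, 4.19 and 7.64 CPM in young control, also without overlap (0.69 ± 0.30, SE; adjusted p = 0.520 by edgeR). On the lower side, Fa2h had 16.5, 9.88, 9.23 and 15.3 CPM in old control, against 27.5, 14.9, 25.6 and 28.6 CPM in young control (-0.95 ± 0.32, SE; adjusted p = 0.368 by edgeR). Cldn11 (-0.46), Tspan2 (-0.44) and Nipal4 (-0.56) were the other genes on the lower side at an unadjusted p under 0.05. Other values were 0.02 for Mog, 0.05 for Opalin, 0.69 for Klk6, 0.42 for Apod, -0.25 for Cryab, 0.57 for Sox10 and 0.49 for Myrf, none of which passed.

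The call in the age comparison depended on the tool. DESeq2 called 4 of the 30 higher (Mbp, Mobp, Anln and Bcas1) and 0 lower, where it called 211 genes higher and 177 lower in all. With quality weights limma-voom called 7 of the 30 higher and 6 lower, where it called 1602 genes higher and 2105 lower in all. Bcas1 was in both sets and was also called with all 5 groups in the fit, with the length slope as a covariate and with the offset for length and GC content. Of 10 genes reported in disease-associated oligodendrocytes 10 were above 0 and 1 was called higher, H2-K1 of antigen presentation (1.00 ± 0.12, SE; adjusted p = 0.0307 by edgeR), which other cells express too. Mitochondrial transcripts took 15.8% of counts in old control 3 and 5.54% to 8.14% in the other old controls, against 12.9% to 17.2% in young controls 1, 2 and 3 and 5.73% in young control 4, and their part in these values was not tested. All 12 microglial genes were above 0 with 0 called, at 638.8 to 878.7 CPM in old control and 359.6 to 524.4 CPM in young control.

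The acute control and young control groups differ in age by a month as well as in the arm they belong to, and these cannot be told apart. Acute control over young control gave 0 of the 30 higher and 2 lower, where 5.29% of all 19061 genes were called, 0.923% higher and 4.37% lower. Ppp1r14a had 7.13, 12.3, 13.2, 15.7 and 9.46 CPM in acute control, against 32.3, 33.7, 37.5 and 12.3 CPM in young control (-1.32 ± 0.33, SE; adjusted p = 0.0285). Cryab had 58.6, 61.5, 73.0, 94.7 and 70.3 CPM in acute control, against 132, 140.2, 142 and 82.2 CPM in young control (-0.79 ± 0.23, SE; adjusted p = 0.0480). In both genes young control 4 was far below the other young controls, so the groups overlapped. Neither passed with the length offset, and neither passed when acute control 1, 2 or 5 or young control 1, 2 or 3 was left out. Nkx6-2, with the third smallest p, had 31.2, 41.6, 51.1, 42.7 and 26.8 CPM in acute control, against 28.4, 11.6, 20.5 and 29.6 CPM in young control (0.78 ± 0.28, SE; adjusted p = 0.109). The acute controls also enter the acute diet comparison.

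Whether the diet effect differed between the old and the acute groups was tested in 1 model over all 20 libraries, as the old effect minus the acute effect. The old and acute groups differ in age and in the time on the diet, which cannot be told apart. Acute Gly-Low and acute control also differed in length slope and mitochondrial share, which cannot be told apart from their diet. Across the 30 genes the difference had a Spearman's rho with transcript length of 0.51, against 0.55 across all genes. The difference passed for 15 of the 30 genes, 2 with a positive and 13 with a negative difference, where 36% of all genes passed, 16.8% positive and 19.2% negative. Of the negative differences, given with their SE, the 6 with the smallest p were those of Mobp (-1.63 ± 0.30, adjusted p = 3.99e-04), Aspa (-2.13 ± 0.40, adjusted p = 5.35e-04), Ermn (-1.72 ± 0.38, adjusted p = 0.00172), Mog (-1.48 ± 0.34, adjusted p = 0.00241), Opalin (-1.66 ± 0.39, adjusted p = 0.00261) and Car2 (-1.24 ± 0.32, adjusted p = 0.00521). Ppp1r14a (-1.88), Bcas1 (-1.15), Pllp (-1.28), Apod (-1.498), Mal (-0.96), Cryab (-1.11) and Anln (-0.92) also passed on that side. Mag (1.60 ± 0.47, SE; adjusted p = 0.0123) and Fa2h (1.23 ± 0.47, SE; adjusted p = 0.0483) passed on the positive side. Mbp did not pass (-0.61 ± 0.31, SE; adjusted p = 0.132). With the length offset 7 of the 13 negative differences and 1 of the 2 positive ones, that of Mag, passed. With the length slope as a covariate 1 negative difference passed, that of Mobp, and 0 positive ones. Over all genes 2532 negative and 1903 positive differences passed with the length offset, and 924 and 794 with the covariate. Without either, 3666 and 3193 passed.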

How the data were processed

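Poly-A RNA of the hypothalamus was sequenced from non-directional libraries, per the labels' protocols. The authors deposited raw read counts per gene; reads were aligned with HISAT2 2.0.5 to GRCm38 and counted with featureCounts 1.5.0-p3, per the submitters' processing notes, which also name DESeq2 1.20.0. Annotation release and strand setting: not given in the sources used here. Of 54532 gene IDs, 54495 were found in the reference annotation and 21380 had no count. Library totals were 15848372 to 27399753 counts per library.

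From these counts, edgeR 4.0.16 (R 4.3.3) with TMM normalization, its group-wise filter on low counts and the quasi-likelihood test gave log2 fold changes, with Benjamini-Hochberg adjustment over all genes tested and a threshold of 0.05. The acute diet was fitted on 9 libraries, the old diet and age on 11, and the comparison of young control groups and the difference between diet effects on all 20. CPM used TMM factors over 20 libraries, and CPM per kilobase the median transcript length. Alternatives used DESeq2 1.42.0, limma 3.58.1, other filters, offsets in 40 bins of transcript length or of length and GC content, a length slope covariate, a replicate block and left-out libraries. The scripts were tested on simulated data. The 30 genes and the other lists were chosen with earlier results of these data known. Full values go to called genes of the 30, ranked by p, up to 6 each way, and to the first 3 by p if under 3 were called. Mbp, Mog, Myrf, Sox10, Opalin, Enpp6, Bcas1, Klk6, Apod and Cryab are described whatever their values. Each other list gives at most its first 3 genes by p each way.

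Same-numbered libraries of the old groups had correlations of 0.42, 0.27 and 0.25, but 0 of the 3 correlated best with its own number. These values do not show that the numbers mark pairs, and the replicate block is given only as an alternative. The numbers come from the sample titles, and the column names of the table number old Gly-Low 2 and 3 as 4 and 5. Any pairs are therefore uncertain and so are the blocked values. Correlations of same-numbered libraries were -0.04 to 0.00 in the acute groups and -0.05 to 0.60 in the age comparison. In the age comparison numbers 2 and 4 correlated best with their own number, and numbers 1 and 3 did not.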

Additional observations from a re-analysis of the deposited data

Results flagged for a closer look

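In 5 of 124 sets of 4 to 5 libraries of 1 group, each holding 1 gene or the summed level of the 30 genes, 1 library stood far from the others, where chance alone gives about 1 in 20. Young control 4 was the lowest of 4 for Ugt8a (82.1 CPM), Aspa (15.9 CPM) and Cryab (82.2 CPM). Old control 4 was the highest for Myrf (19.1 CPM) and old control 3 the highest for Ppp1r14a (30.3 CPM).

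The diet effect differed between the old and the acute groups for 15 of the 30 genes, where 36% of all genes passed. This is the test of the difference itself (edgeR, adjusted over all genes). With the length offset 7 of the 13 negative and 1 of the 2 positive differences passed. With the slope covariate 1 negative and 0 positive differences passed. Over all genes, 924 negative and 794 positive differences passed with that covariate, against 3666 and 3193 in the main fit. On the log2 scale, as old effect minus acute effect, the main difference was 1.60 for Mag and 1.23 for Fa2h. It was -2.13 for Aspa, -1.88 for Ppp1r14a, -1.72 for Ermn, -1.66 for Opalin, -1.63 for Mobp, -1.498 for Apod, -1.48 for Mog, -1.28 for Pllp, -1.24 for Car2, -1.15 for Bcas1, -1.11 for Cryab, -0.96 for Mal and -0.92 for Anln.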

How the results depend on the processing

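In the acute diet comparison, the count of genes called higher became 7 with the length offset, 7 with the offset for length and GC content (an alternative chosen after seeing the data), 2 with the length slope covariate, 6 with the replicate block and length offset together and 6 without acute controls 2, 3 and 5. Over all genes, the count called higher went from 4774 to 4099, 3926, 2137, 3354 and 3458 in the same order. The count of the 30 called lower became 2 with the slope covariate and 3 with all 5 groups in the fit. It stayed at 5 with the length offset and with the replicate block, but in each only 3 were among the main 5. Over all genes, the count called lower went from 5231 to 1670 with the slope covariate and 4382 with all 5 groups. For the 30, leaving out single libraries gave 10 to 12 higher and 4 to 7 lower. Signs turned with the length offset for Mobp (-0.28), Mog (-0.042), Cryab (-0.36) and Ppp1r14a (-0.37), and with the block added for Mobp (-0.35), Mog (-0.095), Cryab (-0.36) and Ppp1r14a (-0.41). They turned with the slope covariate for Opalin (-0.43), Car2 (-0.26), Mog (-0.30), Cryab (-0.34), Ppp1r14a (-0.82), Sox10 (1.52) and Myrf (1.00), and with length and GC content for Mobp (-0.040), Cryab (-0.093) and Myrf (0.095). The slope covariate moved the median of all genes to 0.17, against -0.07.

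The old diet count was 0 in every alternative, and single libraries left out gave 0 to 0. For age, the count higher became 4 with DESeq2, 7 with limma-voom, 3 with the slope covariate, 2 with length and GC content and 1 with all 5 groups, and the count lower 6 with limma-voom; left-out libraries gave 0 to 0. Over all genes the counts higher with age were 211, 1602, 214, 73 and 70 in the same order, against 6. A replicate block gave 11 of the 30 higher and 5 lower for the acute diet and 0 for the old diet and age. For the acute diet Ppp1r14a lost its call on the higher side with the block, and Sox10 and Myrf on the lower side. Between young controls, the count lower became 1 with DESeq2 size factors and 1 with no filter. It became 0 with the length offset, the slope covariate, length and GC content or without acute controls 2, 3 and 5. The count higher became 2 with limma-voom and 1 with length and GC content. Left-out libraries gave 0 to 1 higher and 0 to 3 lower. Over all genes the counts lower were 768, 605, 187, 0, 310 and 0 in the same order, against 833. The counts higher were 2992 and 104, against 176.

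For the difference between diet effects, the count positive became 1 with DESeq2 size factors, 1 with no filter, 4 with limma-voom and 0 with the slope covariate, and the count negative 7 with the length offset, 1 with the slope covariate and 8 with length and GC content; left-out libraries gave 1 to 4 positive and 11 to 13 negative. Over all genes the counts positive were 3063, 2993, 4181 and 794 in the same order, against 3193. The counts negative were 2532, 924 and 2402, against 3666. Signs turned with the length offset for Cryab (0.15) and with the slope covariate for Opalin (0.099), Ppp1r14a (0.28), Apod (0.049) and Cryab (0.26). The cause was not tested. Counts of 15 to 20 for Sox10 and Nipal4 in single libraries limit the precision of these genes.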
